A study of Sus scrofa with 12 samples.

Results

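The genes described here encode collagens and laminins of the basement membrane, with the proteins that tie them together, in the infarcted pig heart. The list held 10 genes, namely COL4A1, COL4A2, LAMA2, LAMA4, LAMA5, LAMB1, LAMB2, LAMC1, NID1 and HSPG2, and a member was any listed gene whose pig symbol could be paired with an Ensembl identifier of the count tables. Of the 10, 9 were paired, among 35682 genes in the tables and 15621 genes with a symbol. LAMA2, the alpha chain best known from the basement membrane of muscle fibres, had no identifier in the symbol table and was not analysed here.

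Messenger RNA was sequenced from the hearts of 6 female Yorkshire pigs, aged 10 to 12 weeks at the start, named by the animal numbers 1022, 1322, 1323, 1623, 1922 and 3622. In every animal the left anterior descending artery had been closed with a balloon for 60 minutes and reopened. All animals were immunosuppressed from day 9 after the injury, with tacrolimus at 0.75 mg per kg, prednisolone at 20 mg and mycophenolate mofetil at 500 mg, each given daily. A left thoracotomy followed on day 14, with either topical scaffold-free vascular organoids of human endothelial progenitor cells and smooth muscle cells, fixed with fibrin glue, or fibrin glue alone, and the hearts were taken 28 days later. From each heart, 1 library came from the border zone beside the infarct and 1 from the remote zone of the posterior wall, both from mid-ventricular level. The labels do not say which animal received organoids, so each zone holds animals of both groups and the treatments were not compared. The remote zone comes from the same injured, immunosuppressed heart and is not uninjured tissue.

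A basement membrane is a thin sheet of matrix that underlies endothelium, wraps smooth muscle cells and pericytes, and encloses each cardiomyocyte. Laminins, built from an alpha, a beta and a gamma chain, assemble on the cell surface through integrins and dystroglycan. Collagen IV forms a second, covalently linked network, and nidogen and the heparan sulfate proteoglycan perlecan bridge both. COL4A1 and COL4A2 make the collagen IV trimer found in nearly all tissues. LAMA4 and LAMA5 encode the alpha chains of vascular laminins, LAMB1 and LAMB2 encode alternative beta chains, and LAMC1 encodes the gamma chain common to most laminins. NID1 encodes nidogen and HSPG2 encodes perlecan.

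COL4A1 and COL4A2 lie head to head on chromosome 11 of Sscrofa11.1, and the stretch between their start sites is short. The RefSeq annotation puts the start of COL4A1 at position 76997409 on the minus strand and the nearer start of COL4A2 at 76997543 on the plus strand, which leaves 133 bp between them (chr11:76997410-76997542, plus strand). It is shown because COL4A1 made up 43.0% to 57.4% of the level of this pair per kb of exon in the 12 libraries. The windows of the same length just before the RefSeq starts of LAMB1 (chr9:107747243-107747375, minus strand) and LAMB2 (chr13:31750624-31750756, minus strand) are shown beside it, since these alternative beta chains had the highest and the lowest log2 fold change of the members. Each is printed 5′ to 3′ on the strand given, and capitals mark a CCAAT box (CCAAT, or ATTGG on the other strand) or a GC box (GGGCGG, or CCGCCC on the other strand). These motifs do not overlap each other.
COL4A1-COL4A2 intergenic: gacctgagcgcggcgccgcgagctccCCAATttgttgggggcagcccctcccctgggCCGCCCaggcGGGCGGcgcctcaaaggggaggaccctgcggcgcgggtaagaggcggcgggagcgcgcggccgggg
LAMB1 upstream: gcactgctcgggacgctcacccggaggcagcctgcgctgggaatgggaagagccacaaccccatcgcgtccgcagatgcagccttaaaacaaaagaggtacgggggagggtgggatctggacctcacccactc
LAMB2 upstream: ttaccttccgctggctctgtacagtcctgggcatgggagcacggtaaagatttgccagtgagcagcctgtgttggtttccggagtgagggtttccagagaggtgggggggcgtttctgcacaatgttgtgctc

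The stretch between the collagen genes had a GC content of 78.9% and held 1 CCAAT box on the plus strand and 1 GC box on each strand, but no TATA box (TATAAA, or TTTATA on the other strand). The windows of LAMB1 and LAMB2 had a GC content of 63.2% and 56.4% and held none of these letters, which says only that the letters are not in these windows. Over the 25337 RefSeq genes with a window of this length before their start, the median GC content was 58.6%. A CCAAT box was present in 21.1% of the windows, a GC box in 34.1%, a TATA box in 5.41%, and both a CCAAT and a GC box in 7.60%. A further RefSeq start of COL4A2, at position 76996885, lies 525 bp inside COL4A1. The libraries did not keep the strand, so reads from that overlap cannot be told apart between the collagen genes.

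The total of counts per library ranged from 15130210 to 30526110 for the border zone and from 20091415 to 31618680 for the remote zone, and each member had between 416 and 64441 counts in a library. Some libraries stood apart. In the border zone library of animal 3622, 28024 genes had counts, whereas the others had at most 20148. The 13 mitochondrial protein genes took 33.5% of the counts in the remote zone library of animal 3622, and 5.69% to 21.4% in the other 11 libraries. The border zone library of animal 1022 had the lowest summed level of the cardiomyocyte markers (11602 CPM, counts scaled to a common library size, against at least 42874 in the other border zone libraries and 59328 to 108782 for the remote zone). It also had the highest summed level of the fibroblast markers (70052 CPM, against at most 12016 in the other border zone libraries and 1121 to 2780 for the remote zone). No cardiomyocyte marker with an identifier was at 0 in any library, and MYH7 had no identifier. Values without animal 1022 are therefore given beside those of each member, each gene list and each other basement membrane gene that passed, and values without animal 3622 follow once.

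The CPM were scaled by TMM factors, which set libraries to a common size through the genes that differ least. Compared per kb of exon, the members spanned a wide range of levels in the remote zone. LAMB2 had the highest remote zone median at 124 CPM per kb, above COL4A2 at 98.0 and COL4A1 at 86.3. LAMC1 followed at 44.1 and HSPG2 at 38.7 CPM per kb. NID1, LAMA4 and LAMA5 had 19.8, 17.9 and 14.9 CPM per kb, and LAMB1 was lowest at 4.93. Among neighbours in this order, the ranges of the 6 remote zone libraries did not overlap between LAMB2 and COL4A2 (lowest 109 against highest 108 CPM per kb), between COL4A1 and LAMC1 (76.6 against 62.7) and between LAMA5 and LAMB1 (10.1 against 6.25). The other 5 pairs of neighbours overlapped. In the border zone the medians placed COL4A1 first at 131 CPM per kb, ahead of COL4A2 at 119 and LAMB2 at 112, and LAMB1 again last at 7.21, as the plot of levels per length shows.

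**Figure D1:**
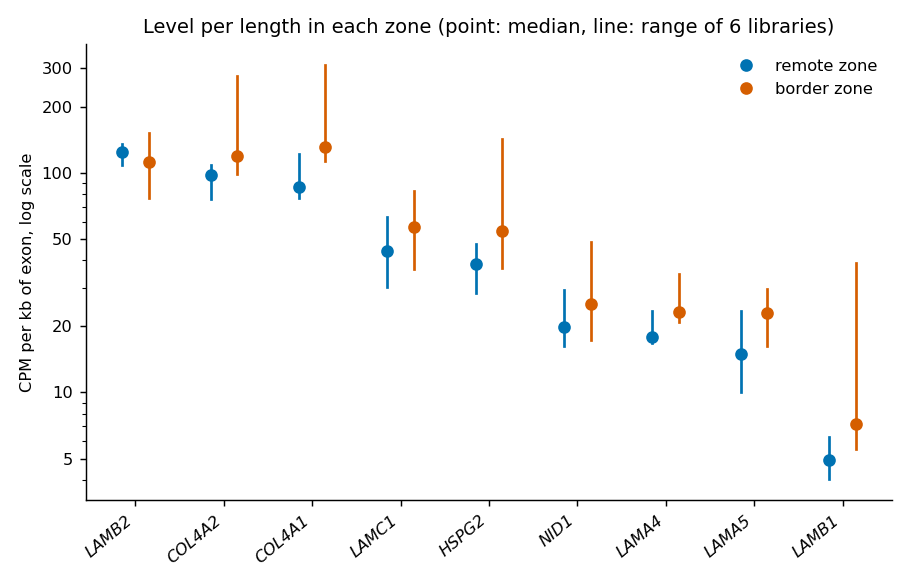
Level of each member in CPM per kb of exon on a log scale, for the remote zone (blue) and the border zone (orange). Points are medians and lines the range of 6 libraries. LAMB2, COL4A2 and COL4A1 have the highest remote zone medians (124, 98.0 and 86.3) and LAMB1 the lowest (4.93).

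The main question asked of the 9 members was whether their levels differed between the zones. In the quasi-likelihood fit of edgeR, with p-values adjusted over the 13844 genes tested, 0 of 9 passed an adjusted p of 0.05, against 2.07% of all genes tested. At an unadjusted p under 0.05, 6 of 9 passed, each with the higher level in the border zone (COL4A1, COL4A2, LAMA4, LAMA5, LAMB1 and HSPG2), against 17.0% of all genes. With the animal as a block, 0 of 9 passed the adjusted threshold, against 0.296% of all genes, and 4 of 9 had an unadjusted p under 0.05, against 29.4% of all genes in that fit. The log2 fold change, border minus remote zone, was above 0 for 8 of 9 members, against 53.3% of all genes, and its median over the members was 0.52, against 0.04 over all genes. COL4A1, COL4A2, LAMA4, LAMA5, LAMB1 and LAMC1 had the higher level in the border zone of 6 of 6 animals, against 11.7% of all genes. No member had every border zone library above every remote zone library, which 1.99% of all genes did. The members were chosen with earlier results of these data known, so these comparisons with all genes are descriptions. In such bulk tissue, fewer cells of a type and less RNA per cell cannot be told apart.

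The 2 network collagens are taken first. COL4A1 (ENSSSCG00000044700, chr11:76858332-76997409, minus strand) had 720.1 to 1985 CPM in the border zone, with a median of 835, against 489 to 777 in the remote zone, with a median of 551. The highest border zone value, in animal 1022, was 2.14-fold the next, and the highest remote zone value, in animal 1322, lay within the border zone range. The fold of border over remote zone was 4.06 in animal 1022, 1.71 in 1323, 1.57 in 3622, 1.41 in 1623, 1.29 in 1922 and 1.05 in 1322. Its log2 fold change was 0.81 (SE 0.26, adjusted p = 0.0966), and 0.45 without animal 1022 (SE 0.15, adjusted p = 0.175).

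COL4A2 (ENSSSCG00000009545, chr11:76996885-77161617, plus strand), the partner chain in the trimer, had 611 to 1724 CPM in the border zone (median 739.9) against 471 to 672 in the remote zone (median 609). Again the border zone library of animal 1022 was 2.21-fold the next, and the remaining 5, at 611 to 779 CPM, overlapped the remote zone. Its log2 fold change was 0.58 (SE 0.26, adjusted p = 0.185), and 0.29 without animal 1022 (SE 0.15, adjusted p = 0.367). COL4A1 made up 47.4% to 57.4% of the per-kb level of the pair in the border zone (median 52.7%) and 43.0% to 53.2% in the remote zone (median 49.4%), and this share was higher in the border zone in 5 of 6 animals.

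Of the laminin alpha chains, LAMA4 (ENSSSCG00000004425, chr1:78071990-78224564, minus strand) had 128 to 211 CPM in the border zone (median 141) against 102 to 143 in the remote zone (median 109). Its smallest difference within an animal, 1.17-fold in animal 1922, was above the smallest of every other member, and its largest was 1.86-fold in animal 1022. Its log2 fold change was 0.44 (SE 0.16, adjusted p = 0.135), and 0.32 without animal 1022 (SE 0.14, adjusted p = 0.283).

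LAMA5 (ENSSSCG00000032761, chr17:61698370-61747795, minus strand) had 187 to 338 CPM in the border zone (median 263) against 115 to 269.8 in the remote zone (median 171). The zones overlapped widely, since animals 1322 and 1922 had remote zone values of 245 and 269.8, close to their border zone values of 251 and 276. In the other 4 animals the border zone had 1.51- to 2.31-fold the remote zone level. Its log2 fold change was 0.52 (SE 0.24, adjusted p = 0.202), and 0.37 without animal 1022 (SE 0.25, adjusted p = 0.479). LAMA4 made up 48.4% to 59.4% of the per-kb level of both alpha chains in the border zone against 44.3% to 62.4% in the remote zone.

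The 2 beta chains differed in their values. LAMB1 (ENSSSCG00000015444, chr9:107670120-107747242, minus strand) had 37.7 to 264 CPM in the border zone (median 49.0) against 27.4 to 42.5 in the remote zone (median 33.5). The border zone value of animal 1022 was 4.05-fold the next, 65.2 CPM in animal 1922, and the fold over the remote zone ran from 1.05 in animal 1322 to 8.29 in animal 1022. The log2 fold change was 1.33, the largest of the members (SE 0.44, adjusted p = 0.101), and 0.52 without animal 1022 (SE 0.18, adjusted p = 0.182).

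LAMB2 (ENSSSCG00000011377, chr13:31738282-31750623, minus strand) had 435 to 856 CPM in the border zone (median 635) against 617 to 769.6 in the remote zone (median 702). Here the border zone library of animal 1022 was the lowest of the 12, and the border zone was the higher in animals 1323 and 1922 only. LAMB2 had a log2 fold change of -0.10 (SE 0.20, adjusted p = 0.795), and -0.03 without animal 1022 (SE 0.17, adjusted p = 0.962). With library totals in place of TMM factors it was 0.17, so its sign depends on the scaling. LAMB1 made up 4.40% to 33.5% of the per-kb level of both beta chains in the border zone, with 7.51% as the next highest, against 2.96% to 4.53% in the remote zone. This share was higher in all 6 border zones.

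LAMC1 (ENSSSCG00000015555, chr9:124283668-124405967, plus strand), the gamma chain, had 276 to 625 CPM in the border zone (median 430.5) against 230.0 to 476 in the remote zone (median 334). The highest value in both zones was that of animal 1922 and the lowest that of animal 3622. The difference within animals ran from 1.03-fold in animal 1623 to 1.60-fold in animal 1022. The log2 fold change was 0.35 (SE 0.24, adjusted p = 0.385), and 0.28 without animal 1022 (SE 0.26, adjusted p = 0.646). With the animal as a block its SE was 0.16.

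Of the linkers, NID1 (ENSSSCG00000026819, chr14:55239327-55346948, plus strand) had 104 to 291 CPM in the border zone (median 151) against 97.1 to 175 in the remote zone (median 119). It was the higher in the border zone of animals 1022, 1323 and 1922 and the lower in the other 3. NID1 had a log2 fold change of 0.45 (SE 0.28, adjusted p = 0.333), and 0.19 without animal 1022 (SE 0.27, adjusted p = 0.794).

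HSPG2 (ENSSSCG00000003514, chr6:79849691-79958283, minus strand) had 550.5 to 2129 CPM in the border zone (median 810.0) against 423 to 706 in the remote zone (median 575). The border zone library of animal 1022 was 2.20-fold the next, and its fold over the remote zone library of the same animal was 5.03. Animals 1322 and 1623 had 0.981- and 1.02-fold. Over all animals the log2 fold change was 0.80 (SE 0.31, adjusted p = 0.142), and 0.35 without animal 1022 (SE 0.19, adjusted p = 0.389).

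**Figure D2:**
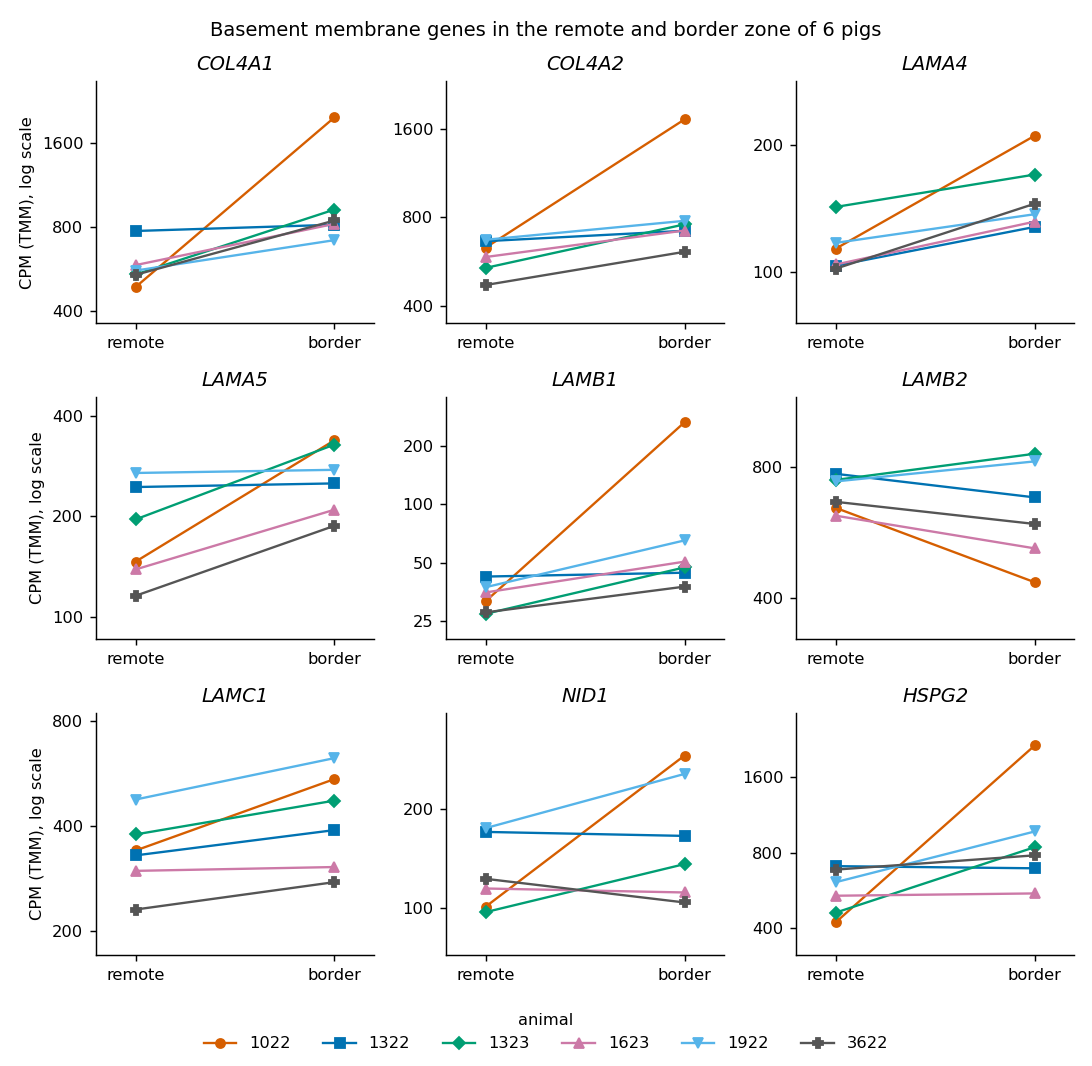
CPM of the 9 members on log axes, 1 panel per gene with its own scale, with lines that join the remote and border zone libraries of 1 animal. In animal 1022 (orange circles) COL4A1 goes from 489 to 1985, LAMB1 from 31.8 to 264 and HSPG2 from 423 to 2129, while LAMB2 goes from 643 to 435.

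The plot of single animals shows how far the size of the difference varied. In animal 1022 the border zone had the higher level of 8 of 9 members, with a median difference of 1.45 on the log2 CPM scale. Animals 1323 and 1922 had 9 of 9, with medians of 0.49 and 0.36. Animals 1623 and 3622 had 7 of 9, with medians of 0.30 and 0.37, and animal 1322 had 6 of 9, with a median of 0.07. The members are not replicates of the zones, so these counts describe single animals.

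**Figure D3:**
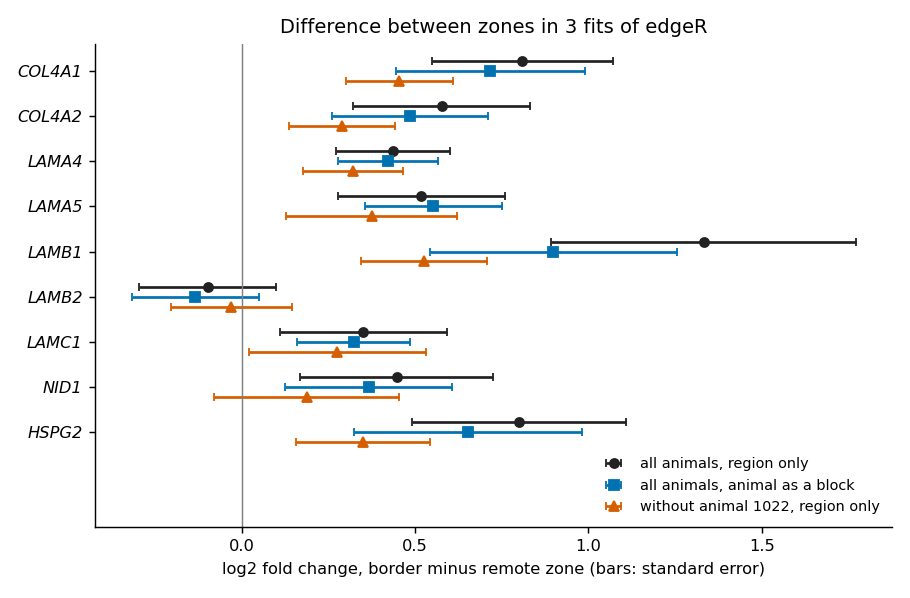
Log2 fold change of each member, border minus remote zone, in edgeR fits with all animals (black circles), with the animal as a block (blue squares) and without animal 1022 (orange triangles). Bars are standard errors. LAMB1 goes from 1.33 to 0.90 with the block and 0.52 without animal 1022, and LAMB2 stays at or below -0.03 in these 3 fits.

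With the animal as a block the log2 fold changes were 0.72 for COL4A1, 0.49 for COL4A2, 0.42 for LAMA4, 0.55 for LAMA5 and 0.90 for LAMB1, with adjusted p from 0.111 for LAMA4 to 0.185 for COL4A2 by edgeR. Those of LAMB2, LAMC1, NID1 and HSPG2 were -0.13, 0.32, 0.37 and 0.65, with adjusted p from 0.215 to 0.640. Without animal 3622 the log2 fold changes of COL4A1, COL4A2, LAMB1 and HSPG2 were 0.83, 0.60, 1.43 and 0.91. With each animal left out in turn, 0 of 9 members passed an adjusted p of 0.05 by edgeR, and 3 to 6 had an unadjusted p under 0.05. At that unadjusted cut the fits passed from 2360 of 13831 genes (without animal 1022) to 3742 of 13966 (without animal 1322). At the adjusted threshold, 1.18% of all genes passed without animal 1022, 3.72% without 1322, 0.0218% without 1323 and 0.107% without 1922. The shares without 1623 and without 3622 were 0.00%, so those fits passed no gene at all and say nothing about the members. The DESeq2 Wald test passed COL4A1 (log2 fold change 0.76, adjusted p = 0.0364) among the 8 members to which it gave an adjusted p, against 10.3% of all genes. It gave none to LAMB1. With library totals as the only scaling, 4 of 9 members passed in edgeR, against 11.2% of all genes. These were COL4A1 (adjusted p = 0.0323), HSPG2 (0.0400), LAMB1 (0.0421) and LAMA4 (0.0499). That scaling moved the median over all genes from 0.04 to 0.32, and the median over the members from 0.52 to 0.81.

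Together the members took 0.383% to 1.03% of all counts in the border zone libraries (median 0.438%) and 0.198% to 0.350% in the remote zone libraries (median 0.305%). These shares did not overlap between zones. The summed CPM, which TMM factors scale, did: 3423 to 7921 in the border zone against 2920 to 3807 in the remote zone. The lowest share was that of the remote zone library of animal 3622, in which the mitochondrial genes took the highest share. Its part in the result was not tested.

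Ratios between members within 1 library do not depend on the scaling between libraries, so 6 were compared between the zones of each animal, as log2 ratios of counts with 0.5 added. The p-values are from two-sided exact permutation tests of within-animal sign changes, which cannot go below 0.03125 with 6 animals, and were adjusted over the 6 ratios. At that floor an adjusted p of 0.05 could be passed only if at least 4 of the 6 ratios reached it. The ratio of LAMB1 to LAMB2 was higher in all 6 border zones, by a mean of 1.08 ± 1.25 (SD, n = 6, exact p = 0.03125, adjusted p = 0.1875). Animal 1022 had a difference of 3.62 and the lowest was 0.24, and without animal 1022 the mean was 0.57. With the zone labels permuted over the 12 libraries, the exact p was 0.00433 and the adjusted p was 0.0260. This permutation ignores the pairs and treats the libraries of an animal as independent. The ratio of COL4A1 to COL4A2 was higher in 5 of 6 animals, by 0.24 ± 0.20 (SD, n = 6, exact p = 0.0625, adjusted p = 0.1875), a shift that was smaller and more even.

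The ratio of COL4A1 to LAMC1 was higher in 4 of 6 animals, by 0.41 ± 0.53 (SD, n = 6, exact p = 0.125, adjusted p = 0.25), and by 0.22 without animal 1022. Those of NID1 to LAMC1 (0.05 ± 0.47, exact p = 0.8125, also after adjustment) and HSPG2 to LAMC1 (0.35 ± 0.70, exact p = 0.34375, adjusted p = 0.4125) were higher in 3 of 6 animals, with means of -0.11 and 0.09 without animal 1022. The ratio of LAMA4 to LAMA5 was higher in 2 of 6 animals, with a mean of -0.13 ± 0.30 (SD, n = 6, exact p = 0.34375, adjusted p = 0.4125). With each animal left out, this mean ran from -0.21 to -0.06. Since only 1 ratio reached the floor, the adjusted values of the paired test do not tell whether the ratios differed.

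**Figure D4:**
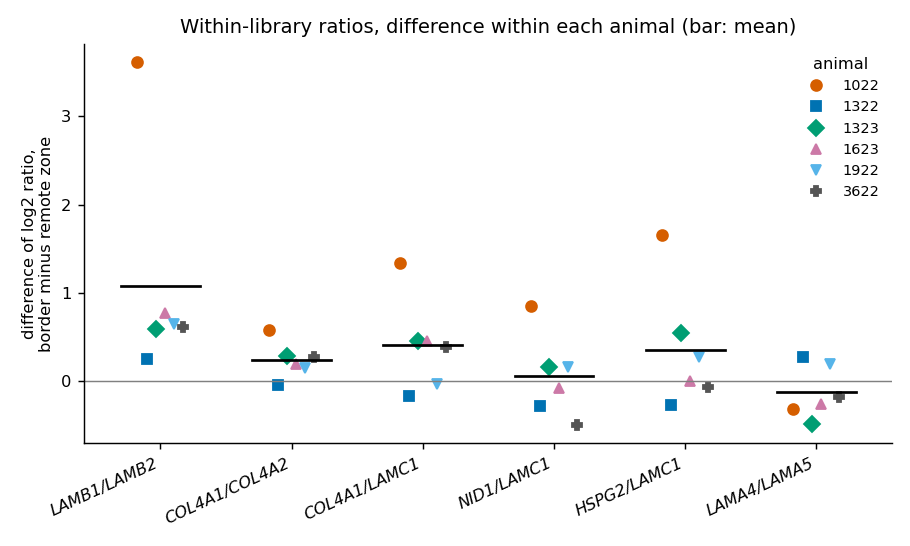
Difference of the log2 ratio of 2 members, border minus remote zone, for each animal (symbols) with the mean (black bar). The difference for LAMB1/LAMB2 is above 0 in all 6 animals, from 0.24 to 3.62, and for COL4A1/COL4A2 in 5 of 6.

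Correlations between members were read after the zone means of log2 CPM were taken out. Of the 36 pairs of members, 19 had a Pearson's r over 0.5 across the 12 libraries and 15 across the 10 libraries without animal 1022, with 9 pairs over 0.5 in both. Several pairs moved with animal 1022. For COL4A1, r was 0.86 with COL4A2, 0.88 with LAMB1 and 0.84 with HSPG2, and 0.36, 0.22 and 0.18 without that animal. COL4A2 with HSPG2 went from 0.77 to 0.18, LAMA4 with LAMB1 from 0.59 to -0.31, and LAMB2 with COL4A1 from -0.52 to 0.13. COL4A2 with LAMB1 had 0.97 and 0.85, LAMA5 with LAMC1 0.80 and 0.81, and LAMC1 with NID1 0.71 in both. The points share library and animal, so these are descriptions. Among the genes outside the list with a pattern most like that of COL4A1, by the same measure, were PABPC1 (r = 0.97, and 0.78 without animal 1022), MYH9 (0.95 and 0.66), LYN (0.94 and 0.70) and PRKD1 (0.94 and 0.86).

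The other genes of the basement membrane were read from lists of 52 collagens, laminins, linkers, receptors and synthesis genes, of which 46 were tested. Of these, 9 passed an adjusted p of 0.05, all with the higher level in the border zone, against 2.07% of all genes, and 29 of 46 were higher with an unadjusted p under 0.05, against 17.0%. The median log2 fold change over the 46 was 0.78, against 0.04 over all genes. The border zone level was the higher in every animal for 19 of them, against 11.7% of all genes, and 5 had no overlap between zones, against 1.99%. With the animal as a block 0 of 46 passed the adjusted threshold by edgeR, against 0.296% of all genes, and 28 had an unadjusted p under 0.05, against 29.4%. In the fits without animal 1323, 1623, 1922 or 3622, 0 of them passed the adjusted threshold, where 3, 0, 15 and 0 of all genes passed. At an unadjusted p under 0.05, 22 to 28 of them passed. Of all genes, 2738 of 13784, 2662 of 13745, 3104 of 14008 and 2448 of 13858 did. Of the tested genes of these lists, 6 passed the adjusted threshold without animal 1022, against 1.18% of all genes, and 13 without animal 1322, against 3.72%. The lists, as the members, were chosen with earlier results of these data known, so the comparisons with all genes are descriptions. The synthesis genes serve collagens in general, not only those of the basement membrane.

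Among the other basement membrane collagens, 0 of 4 tested passed, against 2.07% of all genes. Their median was 0.79, and 0.57 without animal 1022. COL18A1, whose C-terminal fragment is endostatin, had 349.9 to 820 CPM in the border zone against 207 to 369 in the remote zone, with a log2 fold change of 1.02 (SE 0.25, adjusted p = 0.0501) and 0.97 without animal 1022. COL15A1, its close relative, had a log2 fold change of 0.76 (adjusted p = 0.196), and 0.34 without animal 1022. COL4A5, a collagen IV chain of more restricted tissues, had 0.51 (adjusted p = 0.296), and 0.58 without that animal. COL4A3 and COL4A4 were under the filter and COL7A1 had no identifier. Among the other laminin chains, 0 of 5 tested passed, with a median of 1.49 at very low levels, and 0.94 without animal 1022. LAMC3, the highest of these per kb, had a median of 2.92 CPM in the border zone and 1.51 in the remote zone. LAMB3 had medians of 0.841 and 0.631 CPM. LAMB4 was under the filter.

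Of the linkers, proteoglycans and associated proteins, 5 of 12 rose, against 2.07% of all genes. The list median was 1.32, and 0.65 without animal 1022. SPARC, a collagen-binding matricellular protein, had 717 to 9770 CPM in the border zone against 192 to 546 in the remote zone, so the zones did not overlap. Its log2 fold change was 2.90 (SE 0.59, adjusted p = 0.0320), and 1.77 without animal 1022 (adjusted p = 0.0123), while the adjusted p was 0.0829 with the block. The related SMOC1 and SMOC2 rose by 2.01 and 2.15 (adjusted p = 0.0494 and 0.0338). Without animal 1022 these were 1.17 (adjusted p = 0.0429) and 1.52 (adjusted p = 0.0770), so SMOC2 no longer passed. FBLN1 and FBLN2, fibulins that bind laminin and nidogen, rose by 2.10 and 1.51 (adjusted p = 0.0338 and 0.0404), and neither overlapped between zones. They had 1.36 and 0.998 without animal 1022 (adjusted p = 0.0187 and 0.0456).

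Of the receptors, 1 of 13 tested rose, against 2.07% of all genes. The list median was 0.45, and 0.27 without animal 1022. The log2 fold change was above 0 for 9 of the 13 and below 0 for the other 4, of which none passed the adjusted threshold. The receptor that rose was ITGB4, an integrin beta chain that pairs with ITGA6 to bind laminin (log2 fold change 1.42, adjusted p = 0.0452). Its medians were 20.5 CPM in the border zone and 8.25 in the remote zone. It had 1.05 without animal 1022 and no longer passed (adjusted p = 0.125). Of the genes for collagen synthesis and folding, which are not particular to collagen IV, 3 of 12 rose, against 2.07% of all genes. Their list median was 0.75, and 0.46 without animal 1022. Those that rose were COLGALT2, a collagen galactosyltransferase (1.31, adjusted p = 0.0356), FKBP10 and P4HA3, a prolyl hydroxylase subunit. FKBP10, an endoplasmic reticulum prolyl isomerase that serves fibrillar collagen, had 2.17 (adjusted p = 0.0427). P4HA3 had 0.534 to 25.1 CPM in the border zone against 0 to 0.401 in the remote zone, where it had 0 to 6 counts in a library. It passed the filter on low counts through the border zone, where it was high, so it had to differ, and its fitted log2 fold change of 5.50 (3.84 without animal 1022) depends on the prior count. It is 1 of the 3 genes of this list and of the 9 in all that passed. Without that animal COLGALT2 had 1.31 and no longer passed (adjusted p = 0.0893), and FKBP10 had 1.25 (adjusted p = 0.0490). The plot of lists shows the spread of these genes beside the members.

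**Figure D5:**
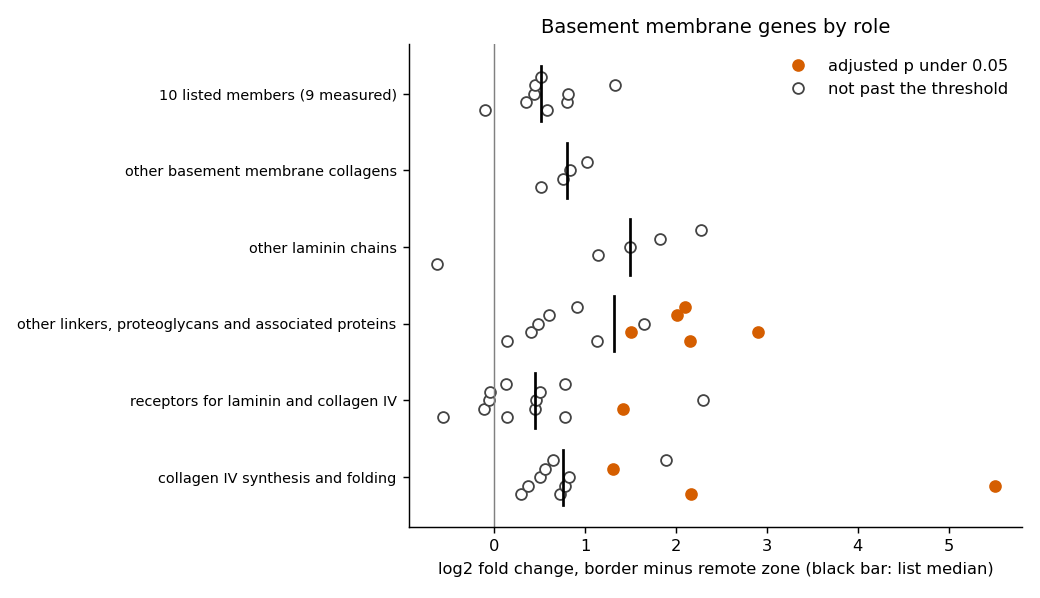
Log2 fold change, border minus remote zone, of each tested gene of 6 lists. Filled points passed an adjusted p of 0.05 in edgeR, and black bars are list medians. The list labelled collagen IV synthesis and folding holds genes that serve collagens in general. The members have a median of 0.52 and no filled point, and the linkers, with a median of 1.32, have 5.

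Markers of the cell types that the tissue may hold were measured in the same libraries. For comparison, 3425 of all 13844 genes tested had an unadjusted p under 0.05 by edgeR, in either direction, and 2.07% passed the adjusted threshold. Of the endothelial markers, 0 of 12 passed the adjusted threshold (0 at an unadjusted p under 0.05, both by edgeR), with a median log2 fold change of 0.12. Their summed CPM was 472 to 670.2 in the border zone against 357 to 824 in the remote zone. Of the smooth muscle and pericyte markers, 0 of 12 passed (9 at an unadjusted p under 0.05), with a median of 1.10 and a summed CPM of 749 to 3351, and 506 to 860.0 in the remote zone. Of the fibroblast markers, 9 of 11 tested passed, against 2.07% of all genes, and 1 with the animal as a block, against 0.296%. Their median was 2.93. The cardiomyocyte markers had a median of -0.56 (0 of 10 passed, 3 at an unadjusted p under 0.05), and the macrophage markers 1.55 (0 of 10 passed, 10 at an unadjusted p under 0.05). Adipocyte markers had a median of 0.31 (0 of 6 passed, 3 at an unadjusted p under 0.05), with ADIPOQ and LEP at 0 in at least 1 library. With the animal as a block 1 of them passed, against 0.296% of all genes. Schwann cell markers had a median of 0.84. Of these, 1 of 6 passed with and without the block, against 0.296% and 2.07% of all genes. It was NGFR, named after its values were seen, whose adjusted p went from 0.0320 to 0.0646 without animal 1022. Without animal 1022 the medians of the smooth muscle and pericyte, fibroblast and macrophage lists were 0.58, 1.81 and 0.62, and those of the endothelial, cardiomyocyte, adipocyte and Schwann cell lists were -0.05, -0.39, 0.46 and 0.39. The summed levels of the smooth muscle and pericyte, fibroblast, macrophage and Schwann cell lists were, as those of the members, highest in the border zone library of animal 1022. Their part in the values of COL4A1, LAMB1 and HSPG2 was not tested.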

How the data were processed

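Tissue of 6 border zone and 6 remote zone samples was sequenced by the authors as poly(A)-selected, nondirectional, paired-end libraries. Per the labels and the methods of the study, reads were aligned with STAR to Sscrofa11.1 with Ensembl genes and counted with featureCounts, whose options are not given in the sources used here. The deposited values are raw counts per gene, 1 table per sample. Samples were grouped by zone and animal from their titles. The members and lists were chosen with earlier results of these data known.

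Counts were tested in R 4.3.3 with edgeR 4.0.16 (quasi-likelihood, robust, filterByExpr, TMM, zone as the only term, Benjamini-Hochberg over 13844 genes, threshold 0.05). The numbers pair the libraries because they name animals. Between the libraries of an animal, the deviations from the zone means had a mean r of 0.345 across genes, over 0.1 in 4 of 6 animals. Alternatives were the animal as a block, leaving out each animal or the mitochondrial genes, DESeq2 1.42.0 or its size factors, scaling by library totals, and keeping all genes or those with 10 counts in each library. Differences within animals used log2 CPM with a prior count of 2. SE is the log2 fold change over the square root of F. Ratios and figures used Python 3.11.15, SciPy 1.17.1 and matplotlib 3.10.9. The ratio of LAMA4 to LAMA5 was added after the identifiers were seen, and the planned ratios to LAMA2 were not run. Exon lengths, gene positions and sequences are from the RefSeq annotation of Sscrofa11.1. Genes named are all members, other basement membrane genes past the threshold or else the 3 highest per kb of a list, and genes most like COL4A1. A few genes that this rule names are not reported here. The steps were tested on simulated data. The p-values of the main fit rest on the spread between libraries of a zone, taken as independent. Only the fit with the animal as a block and the tests of within-animal sign changes use the pairs. Counts may include PCR copies of 1 molecule.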

Additional observations from a re-analysis of the deposited data

Results flagged for a closer look

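In 30 groups of 6 libraries, made of the members' log2 CPM and the log2 ratios in each zone, the gap from the highest or lowest library to its neighbour was compared with the whole range. In 4 groups it was above Dixon's critical value for 6 samples, and chance sets apart about 1 in 20 groups. All 4 are the border zone library of animal 1022. There log2 CPM was 10.96 for COL4A1 (next 9.86), 10.75 for COL4A2 (next 9.61) and 8.04 for LAMB1 (next 6.03). The log2 ratio of LAMB1 to LAMB2 was -0.72 (next -3.36). The same library had the highest fibroblast and the lowest cardiomyocyte marker sums of the border zone, and their part was not tested.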

How the results depend on the processing

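Of 116 values of single members under the alternatives, 110 kept their direction and their side of the threshold, 5 passed it anew (COL4A1 by DESeq2, and COL4A1, LAMA4, LAMB1 and HSPG2 with library totals) and 1 changed sign (LAMB2, 0.17 with library totals). No member passed in the main fit, so keeping a side meant only that a member still did not pass. The fits without animal 1623 or 3622 passed no gene at all, so their calls do not show stability. The median over the members was 0.47 to 0.81 across the other settings, and 0.32 to 0.64 with each animal left out. With each animal left out, 0 members passed, in fits that passed 0 to 519 of all genes, and 0 of all genes without animal 1623 or 3622. At an unadjusted p under 0.05 by edgeR, 3 to 6 members passed, where 2360 to 3742 of all genes did. The count of members that passed was 1 by DESeq2 and 4 with library totals.

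With the animal as a replicate block, 41 genes and 0 other basement membrane genes passed, against 287 and 9 without it, and no call on a member changed. Without the block, as a permutation of zone labels that ignores the pairs, the LAMB1 to LAMB2 ratio (1.08) had an adjusted p of 0.0260 by the exact test. The paired exact test gave an adjusted p of 0.1875. The counts of all genes and of other basement membrane genes were 1724 and 18 by DESeq2, 1551 and 21 with library totals, 139 and 2 with no filter, and 149 and 5 with at least 10 counts in every library. DESeq2 size factors gave 4 of the latter. With each animal left out, the counts ran from 0 to 519 and from 0 to 13. The mean NID1 to LAMC1 ratio was -0.11 without animal 1022, and ran from -0.11 to 0.16 with each animal left out. The causes were not tested. With 5 animals the smallest exact p of a ratio is 0.0625, so those tests say nothing about stability. The lowest count of a member, 416, leaves counting error small beside the spread between animals.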
